A study of Mus musculus with 8 samples.

Results

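The genes of the complement and coagulation cascades were followed in 8 tumors grown under the skin of mice from MC38-OVA cells, colon adenocarcinoma cells of the mouse with ovalbumin as a model antigen. Members were the rows of the deposited table annotated with the KEGG pathway of these cascades, without von Willebrand factor and the genes with integrin names. That left 88 of 25766 rows: 37 complement genes, 36 coagulation genes, 8 fibrinolysis genes and 7 members outside these classes. RNA-seq compared 4 tumors labelled shXBP1, grown from cells with a hairpin against Xbp1, with 4 tumors labelled shNT, grown from cells with the control hairpin. Cells of both genotypes were injected under the skin of female mice, given as C57BL/6J in one label and C57BL/5J in another. The study's title places the question in cancer cells, whose XBP1, a factor that switches on genes of the unfolded protein response, it ties to myeloid cells of the tumor.

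Every library was total RNA of a whole tumor, so RNA of the MC38-OVA cells and of host cells was read together. Animal age was not given in the sources used here. Nothing says that the tumors of a group grew in separate animals, so p-values cover no more than the spread between these samples, which may be technical. The labelled cell type, colon adenocarcinoma cell, had little support from epithelial markers. The 5 looked at were Epcam, Krt8, Krt18, Krt19 and Cdh1. They summed to 7.39 to 10.6 CPM in shXBP1 tumors and 5.61 to 7.88 CPM in shNT tumors (CPM, counts per library scaled by TMM). Of the 3 that could be tested none passed. Epcam averaged 0.465 ± 0.248 CPM in shXBP1 tumors and 0.147 ± 0.183 CPM in shNT tumors (SD, n = 4 each). Krt8 and Krt18 had too few counts to be tested. Xbp1 itself averaged 70.9 ± 9.61 CPM in shXBP1 tumors and 101 ± 5.96 CPM in shNT tumors (SD, n = 4 each), a log2 fold change (log2FC, shXBP1 minus shNT throughout) of -0.51 (SE 0.10, adjusted p = 0.00255). Total counts lay between 29070605 and 36012997 per tumor. Within each group, counts differed between every pair of libraries by more than sampling noise. The difference was largest for pairs with shXBP1 tumor 4. Their chi-square per degree of freedom over the counts was 50.5 to 84.7, against 17.3 to 34.4 for the other shXBP1 pairs.

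Complement is a set of proteases and binding proteins that tag surfaces and call leukocytes. The classical arm starts with C1q and its proteases C1r and C1s, the lectin arm with MASP proteases, and the alternative arm with factor B; all 3 arms meet at C3. Coagulation starts when tissue factor meets factor VII and ends with thrombin and fibrin, which plasmin dissolves again in fibrinolysis. Most plasma components come from the liver, while macrophages, fibroblasts and endothelial cells make some of them locally in tissues.

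Of the 88 members, 47 had enough counts to be tested, 18 had no count in any tumor and 23 had too few. In shXBP1 tumors 27 of the 47 tested members rose, none fell and 20 did not pass the test (edgeR's quasi-likelihood test, two-sided, adjusted over all 14907 genes tested). Among all genes tested, 16.9% rose, 13.1% fell and 30.0% changed in either direction. The median log2FC was 0.98 over the tested members and -0.01 over all genes tested. Of the 27 genes that rose, 19 were at least 2-fold higher, against 1138 of the 2517 that rose among all genes tested. Without adjustment, edgeR at a threshold of 0.05 also gave 0 lower members, and Plat (log2FC -0.24) came just short of it. DESeq2 and limma voom gave 0 lower members after adjustment, and their unadjusted counts were not made.

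Complement had the highest median and fibrinolysis the lowest of the 3 classes. Of 23 tested complement genes 16 rose and 7 did not pass, with a median log2FC of 1.13. Of 16 tested coagulation genes 8 rose and 8 did not pass, with a median of 0.49. Of 5 tested fibrinolysis genes 1 rose and 4 did not pass, with a median of 0.13. The difference between the classes was not tested. In 26 of the 47 tested members, every shXBP1 tumor lay above every shNT tumor, which held for 16.6% of all genes tested. These 26 were all among the 27 that rose. The calls came from the same tumors, so the separation adds no separate support to them. The low-count filter asked for 0.312 CPM in at least 4 tumors, and 41 of the 47 tested members were above that in all 8 tumors. Mus_musculus_newGene_237, 1 of the 27 that rose, reached it in 4 shXBP1 tumors and 1 shNT tumor, so it was tested because of the group where it was high. The same counts held for Serpinb2, which did not pass, and A2m, which did not pass either, reached it in 1 shXBP1 tumor and 4 shNT tumors.

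**Figure D1:**
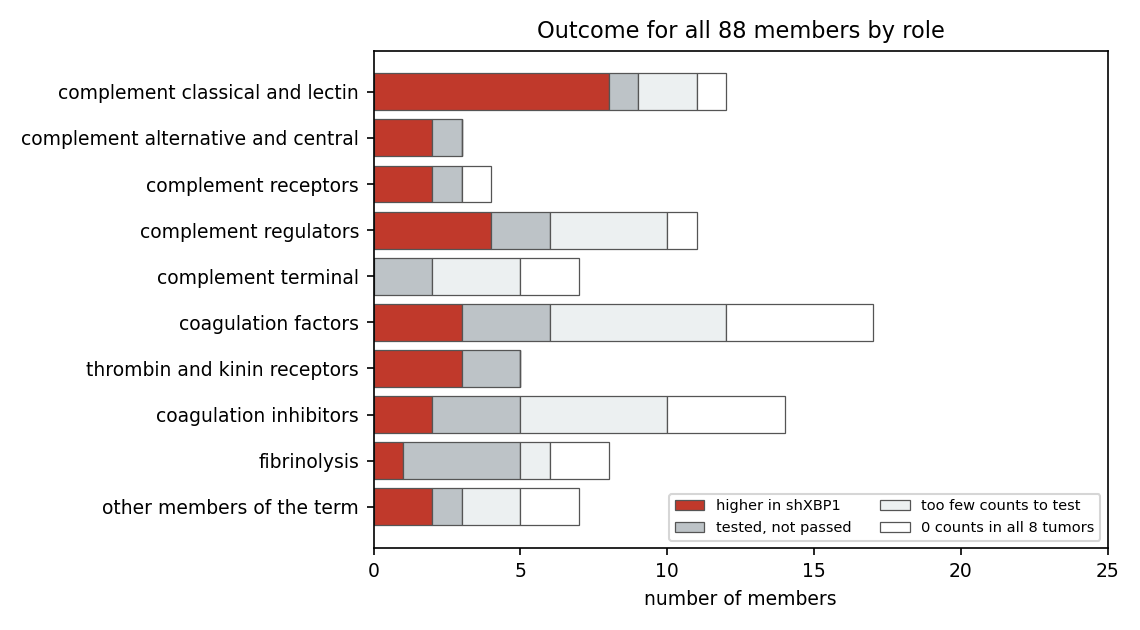
Number of members in each functional role that rose in shXBP1 tumors, did not pass the test, had too few counts to be tested, or had 0 counts in all 8 tumors. Classical and lectin complement genes hold the most genes that rose, 8 of 12, and terminal complement genes hold none.

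**Figure D2:**
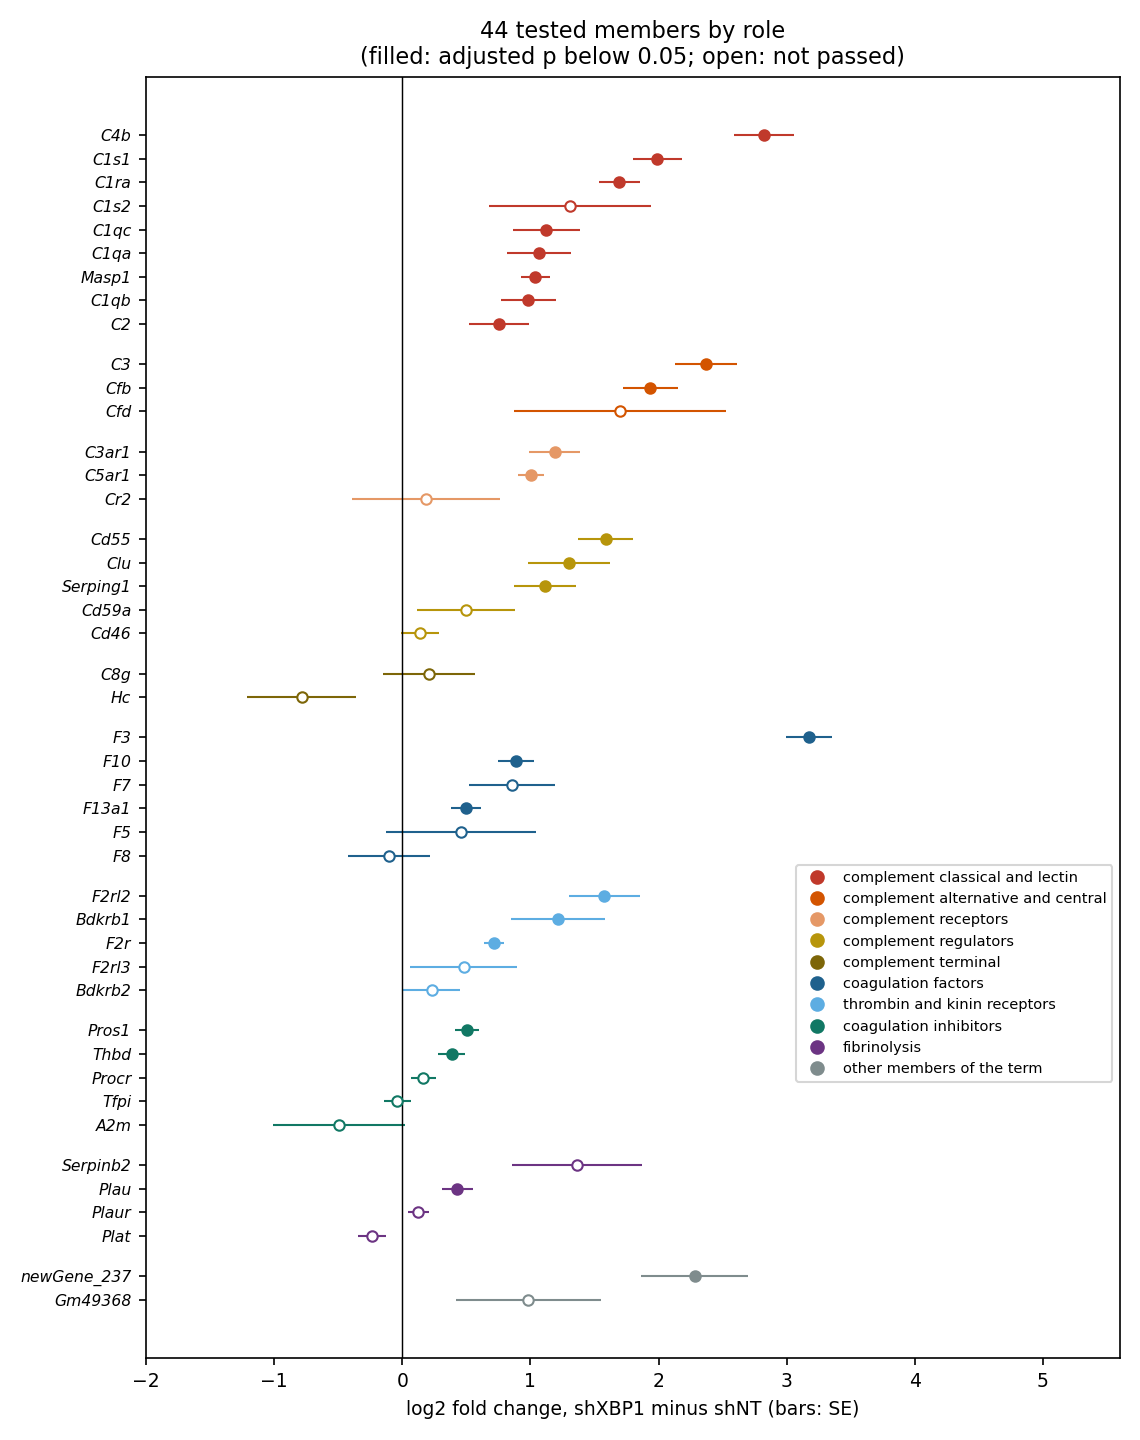
Log2 fold change, shXBP1 minus shNT, of 44 tested members grouped by role. Points are edgeR estimates, bars are their SE, filled points passed the test and open points did not. F3 lies farthest to the right at 3.18 and Hc farthest to the left at -0.79.

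Of 9 tested genes of the classical and lectin arms 8 rose, among them C1qa, C1qb, C1qc, C1ra and C1s1 of the C1 complex. C1q, the recognition molecule that binds antibody on a surface, is built from 3 chains whose genes lie side by side on chromosome 4, with 3616 bases between C1qb and C1qc and 2851 bases between C1qc and C1qa. Per length, these were the members with the highest levels in both groups. C1qa averaged 410 ± 117 FPKM in shXBP1 tumors and 196 ± 28.5 FPKM in shNT tumors (FPKM, the authors' deposited level per gene length, SD, n = 4 each). C1qb averaged 381 ± 91.2 FPKM in shXBP1 tumors and 193 ± 27.4 FPKM in shNT tumors. C1qc averaged 294 ± 85.8 FPKM in shXBP1 tumors and 135 ± 21.4 FPKM in shNT tumors.

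For C1q, shXBP1 tumor 4 stood apart, the tumor that also differed most from its group over all counts. C1qa had 529, 611, 542 and 263 CPM in shXBP1 tumors 1 to 4, against 258, 174, 242 and 254 CPM in shNT tumors 1 to 4. C1qb had 522, 561, 524 and 282 CPM in shXBP1 tumors, against 272, 182, 244 and 258 CPM in shNT tumors. Shown in the same order, C1qc had 439, 493, 469 and 213 CPM in shXBP1 tumors, against 213, 137, 201 and 189 CPM in shNT tumors. Tumor 4 of the shXBP1 group was thus close to the highest shNT tumor for each chain, and for C1qc it lay within the shNT range. The log2FC was 1.07 (SE 0.25, adjusted p = 0.0129) for C1qa and 0.98 (SE 0.21, adjusted p = 0.00752) for C1qb. For C1qc it was 1.13 (SE 0.26, adjusted p = 0.0129).

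The summed FPKM of the C1q chains was 2.07 times as high in shXBP1 as in shNT tumors, and 2.34 times without shXBP1 tumor 4, which by itself stood at 1.24 times the shNT mean. The 3 chains kept nearly the same proportions. C1qa made up 36.7 to 38.8% of their sum in shXBP1 tumors and 36.8 to 38.2% in shNT tumors. C1qb made up 34.1 to 37.6% in shXBP1 tumors and 35.9 to 37.3% in shNT tumors, and C1qc 25.6 to 28.0% in shXBP1 tumors and 24.6 to 26.8% in shNT tumors.

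Markers of macrophages, cells known to make C1q, moved the same way. Of 10 macrophage and monocyte markers 9 rose, and Mrc1 did not pass (log2FC 0.33, adjusted p = 0.388). Their summed level ranged from 2566 to 4907 CPM in shXBP1 tumors and from 1548 to 2173 CPM in shNT tumors, and the 2566 CPM belonged to shXBP1 tumor 4. The leukocyte gene Ptprc had 156, 193, 171 and 94.8 CPM in shXBP1 tumors 1 to 4, and 42.6 to 66.5 CPM in shNT tumors. The part of these markers in the C1q result was not tested, and in whole tumors more cells of a type cannot be told apart from more RNA per cell.

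The proteases that C1q carries rose as well. C1s1, the mouse gene of the protease that cleaves C4 and C2, had 623, 653, 493 and 385 CPM in shXBP1 tumors, against 115, 112, 171 and 145 CPM in shNT tumors. C1ra, which activates C1s, had 170, 153, 130 and 116 CPM in shXBP1 tumors, against 35.6, 38.5, 56.3 and 45.2 CPM in shNT tumors. The groups were far apart for both genes. Their log2FC was 1.99 (SE 0.19, adjusted p = 8.15e-05) for C1s1 and 1.69 (SE 0.16, adjusted p = 4.15e-05) for C1ra. The FPKM of C1s1 over that of C1ra was 3.86 ± 0.395 in shXBP1 tumors and 3.17 ± 0.151 in shNT tumors (SD, n = 4 each). These neighbours on chromosome 6 are 6901 bases apart. C1ra and C1s1 each have a close copy, C1rb and C1s2, so counts could be split between copies, and an antisense transcript over C1s1 was not analysed here.

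C1s2 had 5.54, 1.96, 4.10 and 0.777 CPM in shXBP1 tumors, against 0.347, 1.14, 2.11 and 1.40 CPM in shNT tumors, with overlapping groups and a log2FC of 1.31 (SE 0.63, adjusted p = 0.151). It passed without shXBP1 tumor 4 (1.64, adjusted p = 0.0271).

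C4b, the mouse C4 that becomes part of the C3 convertase of the classical arm, had the largest log2FC of the tested complement genes. It had 256, 213, 183 and 113 CPM in shXBP1 tumors, against 24.0, 25.3, 28.5 and 30.3 CPM in shNT tumors. Even the lowest shXBP1 tumor was well above the shNT tumors, which were close to each other. C4b was 7.08-fold higher (log2FC 2.82, SE 0.23, adjusted p = 5.89e-05). A new locus annotated as complement component 4, Mus_musculus_newGene_237, had 1.37, 1.86, 0.809 and 1.02 CPM in shXBP1 tumors, against 0.189, 0.347, 0.173 and 0.312 CPM in shNT tumors. Its log2FC was 2.28 (SE 0.42, adjusted p = 0.00168), but it may share reads with C4b, and no value is given here for the near-identical C4a.

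C2, which joins C4 in that convertase, and Masp1, a protease of the lectin arm, also rose. C2 had 6.28, 5.53, 5.72 and 4.77 CPM in shXBP1 tumors, against 3.56, 1.89, 4.30 and 3.43 CPM in shNT tumors, a log2FC of 0.76 (SE 0.23, adjusted p = 0.0276). The groups did not overlap, but the call was lost without shXBP1 tumor 1, 2 or 3 or shNT tumor 2 or 4 (adjusted p = 0.0509 to 0.0773). Zbtb12 overlaps C2 by 17385 bases on the opposite strand, so reads of the pair may be mixed. Masp1 had 53.2, 40.8, 54.5 and 48.6 CPM in shXBP1 tumors, against 22.5, 23.2, 22.2 and 28.0 CPM in shNT tumors, a log2FC of 1.04 (SE 0.11, adjusted p = 5.83e-05). On the opposite strand Rtp4 overlaps Masp1 by 525 bases and was also higher (1.03, SE 0.12, adjusted p = 0.000117; chosen after its values were seen), and the strand setting of the counts was not given in the sources used here. Mbl1 and Mbl2, which are lectins, and the protease Masp2 had between 0 and 2 counts over all tumors.

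C3 and Cfb rose as well, and Cfd did not pass. C3, whose cleavage is the step all arms share, had 342, 362, 283 and 223 CPM in shXBP1 tumors, against 45.2, 41.4, 77.6 and 70.0 CPM in shNT tumors. Factor B, the protease of the alternative convertase and the product of Cfb, had 145, 155, 110 and 80.2 CPM in shXBP1 tumors, against 26.7, 27.0, 36.5 and 37.6 CPM in shNT tumors. For both genes the lowest shXBP1 tumor was tumor 4, and it was still above every shNT tumor. C3 was 5.17-fold higher (log2FC 2.37, SE 0.24, adjusted p = 0.000217) and Cfb 3.83-fold higher (1.94, SE 0.22, adjusted p = 0.00025). In FPKM, C3 averaged 51.8 ± 8.86 in shXBP1 tumors and 10.0 ± 2.91 in shNT tumors (SD, n = 4 each).

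Cfd, encoding factor D, which cuts factor B, had 0.701, 2.15, 0.924 and 4.39 CPM in shXBP1 tumors, against 0.914, 0, 0.762 and 0.842 CPM in shNT tumors. The groups overlapped, and the log2FC of 1.70 (SE 0.83) did not pass (adjusted p = 0.157). Cfb, C2 and C4b lie together on chromosome 17 (GRCm38), at chr17:34856374-34862518, chr17:34862604-34898265 and chr17:34728380-34743882. Cfb and C2 also overlap Gm20547, a member that joins them, which had 1 count in all.

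**Figure D3:**
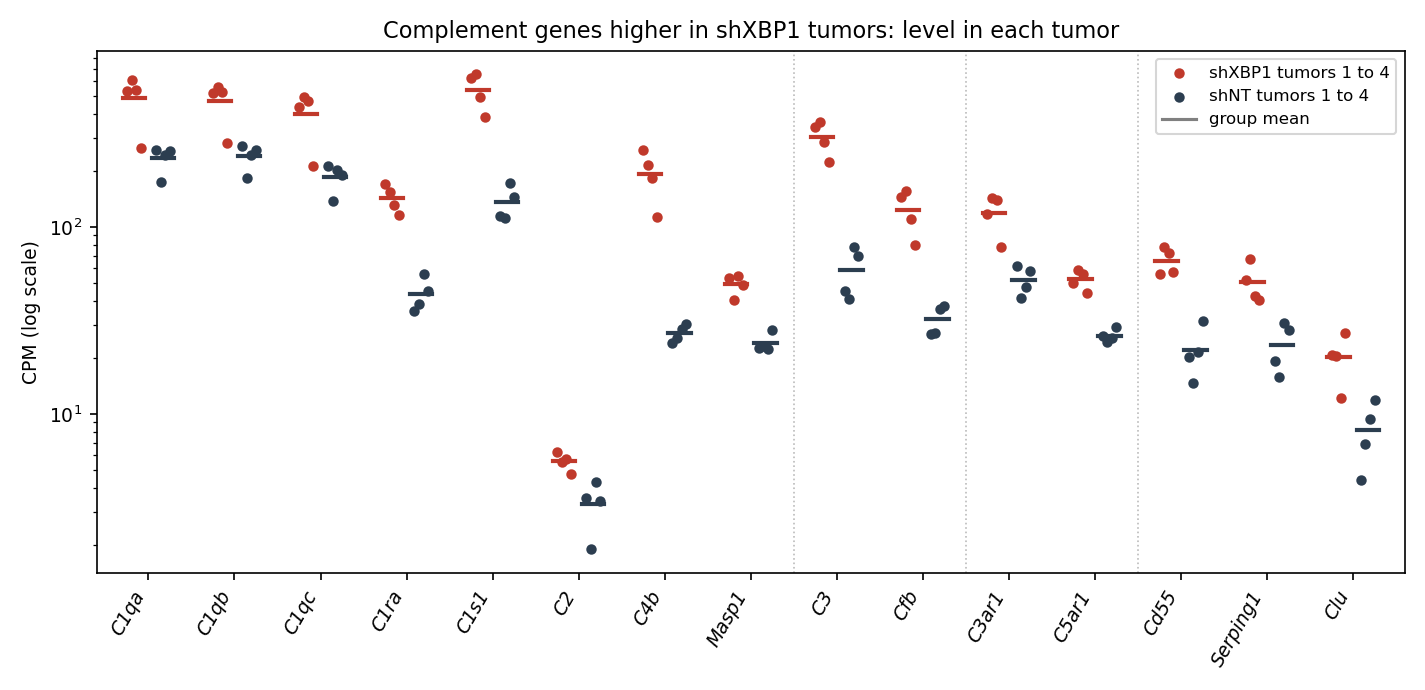
CPM of 15 complement genes that rose, with shXBP1 tumors left of shNT tumors. Points are tumors and lines are group means, on a log axis. C4b and C3 show wide gaps between the groups, while shXBP1 tumor 4 of C1qc meets the shNT tumors.

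Receptors for the cleavage products of C3 and C5 were higher too. C3ar1, the C3a receptor of myeloid cells, had 117, 142, 138 and 77.6 CPM in shXBP1 tumors, against 61.9, 41.5, 47.5 and 57.7 CPM in shNT tumors. C5ar1, the C5a receptor, had 50.2, 59.1, 56.1 and 44.4 CPM in shXBP1 tumors, against 25.9, 24.1, 25.3 and 29.2 CPM in shNT tumors. Neither gene's groups overlapped, and tumor 4 was again the lowest shXBP1 tumor. Estimates of log2FC were 1.19 (SE 0.20, adjusted p = 0.00176) for C3ar1 and 1.01 (SE 0.10, adjusted p = 4.48e-05) for C5ar1. Cr2, the complement receptor of B cells, averaged 0.550 ± 0.265 CPM in shXBP1 tumors and 0.489 ± 0.419 CPM in shNT tumors (log2FC 0.18, SE 0.58, adjusted p = 0.841), and Vsig4, a C3b receptor of macrophages, had no count.

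Inhibitors of complement rose alongside the activating components: 4 of 6 tested regulators passed. Cd55, which speeds the decay of convertases on cell surfaces, had 56.1, 78.2, 72.6 and 57.0 CPM in shXBP1 tumors, against 20.2, 14.6, 21.5 and 31.5 CPM in shNT tumors. All shXBP1 tumors were above all shNT tumors. On the log2 scale the difference was 1.59 (SE 0.22, adjusted p = 0.000694).

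Serping1, encoding the C1 inhibitor that blocks C1r and C1s, had 52.1, 67.6, 42.8 and 40.4 CPM in shXBP1 tumors, against 19.1, 15.7, 30.7 and 28.2 CPM in shNT tumors. Clu, encoding clusterin, a chaperone that binds the membrane attack complex, had 20.7, 20.4, 12.1 and 27.2 CPM in shXBP1 tumors, against 4.41, 6.94, 9.39 and 11.9 CPM in shNT tumors. Clu was 1 of 2 genes that rose with shXBP1 tumor 4 as the highest of its group, Thbd being the other, and its groups came within a small margin of each other. For Serping1 the log2FC was 1.12 (SE 0.24, adjusted p = 0.00772), and for Clu it was 1.30 (SE 0.32, adjusted p = 0.0143).

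Cd59a and Cd46 did not pass. Cd59a, which blocks the membrane attack complex, averaged 1.53 ± 0.0254 CPM in shXBP1 tumors and 1.09 ± 0.589 CPM in shNT tumors (log2FC 0.50, SE 0.38, adjusted p = 0.352). Cd46, a cofactor for C3b cleavage, averaged 7.39 ± 0.367 CPM in shXBP1 tumors and 6.71 ± 0.981 CPM in shNT tumors (0.14, SE 0.15, adjusted p = 0.518). Cd55b, a copy of Cd55, had 18 counts in shXBP1 tumors, from 2 tumors, and 0 in shNT tumors.

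The terminal components, which form the membrane attack complex, were sparse. Hc, the mouse C5, averaged 0.589 ± 0.309 CPM in shXBP1 tumors and 1.01 ± 0.320 CPM in shNT tumors (SD, n = 4 each; log2FC -0.79, SE 0.43, adjusted p = 0.190). C8g averaged 1.25 ± 0.241 CPM in shXBP1 tumors and 1.07 ± 0.441 CPM in shNT tumors (0.21, SE 0.36, adjusted p = 0.696). C6 had 16, 9, 12 and 17 counts in shXBP1 tumors, against 0, 0, 0 and 4 counts in shNT tumors, too few for the filter. Without a filter C6 was tested and passed (adjusted p = 0.0249), and over the 6 alternatives that tested it the adjusted p was 0.00387 to 0.0304. The lowest came without shNT tumor 4, which left C6 at 0 counts in the shNT tumors. With a tumor left out, C6 reached the filter only through the group where it was high, so those values add no separate support. C8a and C8b had no count in any tumor, C7 had 4 counts in shXBP1 tumors and 0 in shNT tumors, and C9 had 4 counts in shXBP1 tumors and 10 in shNT tumors. A count of 0 in a group allows up to 0.0223 CPM in shXBP1 tumors and 0.0241 CPM in shNT tumors, from 3 counts over the group and for counting error only.

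Across the 16 complement genes that rose, shXBP1 tumor 4 was the lowest of its group in 13 and shXBP1 tumor 2 the highest in 11. The same count over all genes was not made. Among the 8 coagulation genes that rose, tumor 4 was the lowest in 2. The marker lists did not all follow this order: fibroblast markers summed to 1638 to 2122 CPM in shXBP1 tumors and 885 to 1209 CPM in shNT tumors, and endothelial markers to 90.5 to 101 CPM in shXBP1 tumors and 42.2 to 52.0 CPM in shNT tumors, with tumor 4 not the lowest in either. All 4 T cell markers rose (47.1 to 134 CPM summed in shXBP1 tumors and 15.5 to 31.1 CPM in shNT tumors, with tumor 4 the lowest of its group), as did all 4 mast cell markers (35.6 to 90.4 CPM in shXBP1 tumors and 1.63 to 7.12 CPM in shNT tumors). Of 4 tested neutrophil markers 3 rose (24.8 to 31.3 CPM in shXBP1 tumors and 6.25 to 11.1 CPM in shNT tumors). Of 6 fibroblast markers 4 rose, among them Dcn at a log2FC of 1.77, while Col1a1 and Col1a2 did not pass. Of 6 endothelial markers 4 rose. Macrophages, fibroblasts and endothelial cells express many of these genes, and the part of these cells in the complement and coagulation results was not tested.

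**Figure D4:**
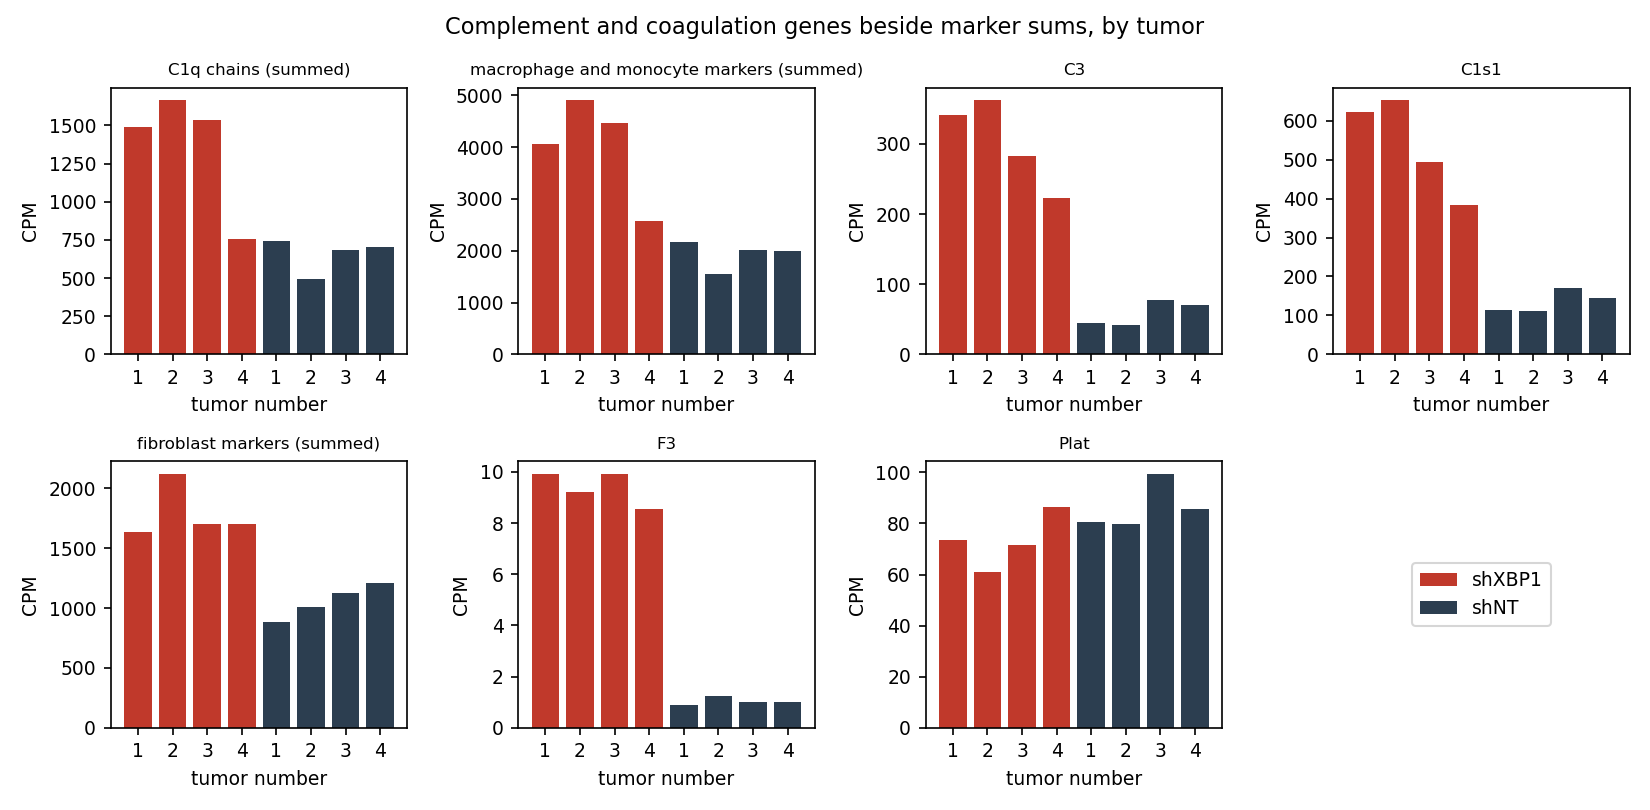
CPM in each tumor, with shXBP1 tumors 1 to 4 left of shNT tumors 1 to 4, for the summed C1q chains, C3, C1s1, F3, Plat and the summed macrophage and fibroblast markers. In shXBP1 tumor 4 the C1q sum is 758 CPM and the macrophage marker sum 2566 CPM, close to the shNT tumors, while its F3 level of 8.57 CPM is close to the other shXBP1 tumors.

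In coagulation the gene that starts the extrinsic pathway had the largest log2FC. F3 encodes tissue factor, the membrane receptor that with factor VIIa sets off clotting, and it is an inducible gene of tumor cells, macrophages and fibroblasts. It had 9.91, 9.23, 9.93 and 8.57 CPM in shXBP1 tumors, against 0.882, 1.26, 1.01 and 0.998 CPM in shNT tumors. Within each group the tumors were close to each other, and shXBP1 tumor 4 was within a small margin of the others. F3 was 9.04-fold higher (log2FC 3.18, SE 0.18, adjusted p = 2.04e-06), more than any other tested member. Its level per length was 4.55 ± 0.164 FPKM in shXBP1 tumors and 0.479 ± 0.0929 FPKM in shNT tumors (SD, n = 4 each).

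F10, the factor that tissue factor and factor VIIa activate, had 25.8, 22.1, 17.3 and 20.8 CPM in shXBP1 tumors, against 12.5, 10.3, 10.4 and 13.2 CPM in shNT tumors. F13a1, the transglutaminase that crosslinks fibrin and a gene of macrophages, had 57.1, 79.5, 80.1 and 61.6 CPM in shXBP1 tumors, against 50.7, 44.5, 52.5 and 49.4 CPM in shNT tumors. The groups did not overlap for either gene, with a narrow gap for F13a1, over which antisense transcripts are annotated that were not analysed here. The log2FC was 0.89 (SE 0.14, adjusted p = 0.000636) for F10 and 0.50 (SE 0.12, adjusted p = 0.00662) for F13a1.

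F7, the partner of tissue factor, had 6.50, 2.64, 5.80 and 3.54 CPM in shXBP1 tumors, against 1.92, 2.05, 2.01 and 4.18 CPM in shNT tumors. Only shNT tumor 4 overlapped the shXBP1 tumors, and the log2FC of 0.86 (SE 0.34) did not pass (adjusted p = 0.0724). F7 passed without shNT tumor 4 (1.21, adjusted p = 0.0165), without shXBP1 tumor 2 (1.05, adjusted p = 0.0304) and without shXBP1 tumor 4 (0.97, adjusted p = 0.0452). F7 and F10 are neighbours on chromosome 8, 1498 bases apart. F5, the cofactor of factor X, averaged 0.515 ± 0.419 CPM in shXBP1 tumors and 0.371 ± 0.149 CPM in shNT tumors (0.46, SE 0.58, adjusted p = 0.593). F8, the cofactor of factor IX, averaged 1.53 ± 0.570 CPM in shXBP1 tumors and 1.64 ± 0.419 CPM in shNT tumors (-0.11, SE 0.32, adjusted p = 0.833).

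Many of the factors that the liver supplies to plasma were at or near 0. The fibrinogen chains Fga, Fgb and Fgg, the factor XI gene F11 and the kininogen gene Kng1 had no count, and prothrombin, F2, had 2 counts in shXBP1 tumors and 2 in shNT tumors. Klkb1, the plasma kallikrein gene, had 25 counts in shXBP1 tumors and 11 in shNT tumors, and Serpina1b, an antitrypsin gene with close copies, had 21 in shXBP1 tumors and 2 in shNT tumors. No more than 12 counts per group were found for F9, F12, F13b, Kng2, Serpina1a, Serpina1e, Vtn, Cfi, Cd59b and Mus_musculus_newGene_238, and none for Serpina1d, Serpina5, C4bp, Gm45753 and Zp3r. Of 7 hepatocyte markers 1 could be tested, the acute-phase gene Hp, which rose by 1.63 on the log2 scale and which neutrophils also express. Their summed level was 5.39 to 14.3 CPM in shXBP1 tumors and 1.70 to 4.66 CPM in shNT tumors, with Serpina1c and Fgb at 0 and Alb at 0.234 CPM in shXBP1 tumors and 0.0158 CPM in shNT tumors.

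Receptors for thrombin and kinins rose in 3 of 5 cases. F2r, encoding PAR1, the main thrombin receptor of fibroblasts and endothelial cells, had 55.2, 58.8, 53.7 and 55.5 CPM in shXBP1 tumors, against 33.9, 36.02, 31.6 and 34.5 CPM in shNT tumors. F2rl2, encoding PAR3, had 2.68, 2.35, 2.31 and 2.25 CPM in shXBP1 tumors, against 0.819, 0.536, 1.07 and 0.780 CPM in shNT tumors. For both genes all shXBP1 tumors were above all shNT tumors, with F2rl2 spread from 0.536 to 1.07 CPM among the shNT tumors. Fitted log2FC values were 0.71 (SE 0.08, adjusted p = 5.74e-05) for F2r and 1.58 (SE 0.28, adjusted p = 0.00128) for F2rl2. F2rl2 lies within Iqgap2 on the opposite strand, which was also higher (1.22, SE 0.19, adjusted p = 0.000579; chosen after its values were seen), so reads of the pair may be mixed.

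Bdkrb1, the inducible kinin receptor, had 1.498, 1.51, 2.17 and 1.79 CPM in shXBP1 tumors, against 0.347, 0.757, 1.25 and 0.655 CPM in shNT tumors. Its groups did not overlap and its log2FC was 1.22 (SE 0.37, adjusted p = 0.0251), a call lost without shXBP1 tumor 3 or shNT tumor 1, 2 or 4 (adjusted p = 0.0568 to 0.0771). Bdkrb2, the constitutive kinin receptor, averaged 4.66 ± 1.16 CPM in shXBP1 tumors and 3.98 ± 0.713 CPM in shNT tumors (0.23, SE 0.22, adjusted p = 0.470). F2rl3, encoding PAR4 of platelets, averaged 0.835 ± 0.345 CPM in shXBP1 tumors and 0.598 ± 0.164 CPM in shNT tumors (0.48, SE 0.42, adjusted p = 0.418). Of 5 tested platelet markers 1 rose, Pf4, which macrophages also express, and Gp9 was near 0.

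**Figure D5:**
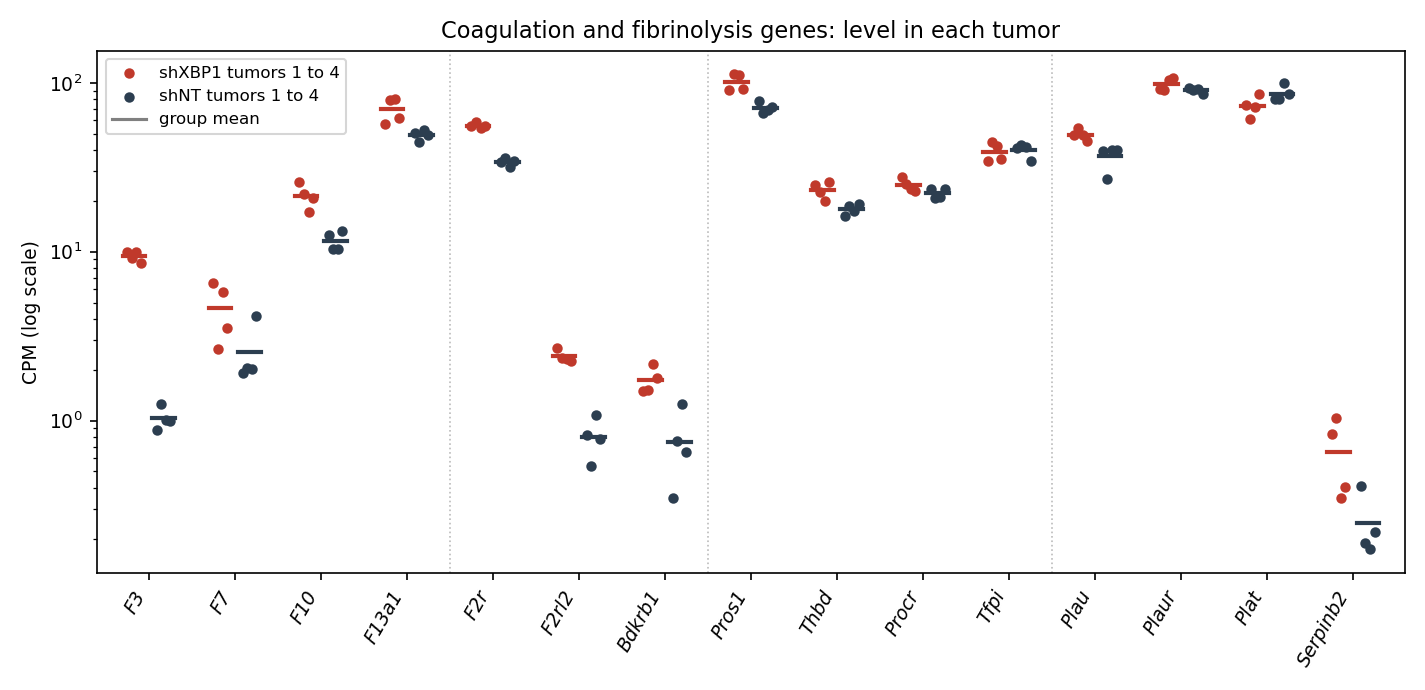
CPM of coagulation and fibrinolysis genes, with shXBP1 tumors left of shNT tumors on a log axis. Points are tumors and lines are group means. F3 shows the widest gap, and Plaur and Plat overlap between the groups.

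Of 5 tested inhibitors of clotting 2 rose. Pros1, encoding protein S, the cofactor of activated protein C and a ligand of TAM receptors, had 90.5, 112, 111 and 92.0 CPM in shXBP1 tumors, against 77.9, 65.9, 69.5 and 72.4 CPM in shNT tumors. Thbd, encoding thrombomodulin, which turns thrombin towards protein C, had 24.9, 22.7, 20.04 and 25.8 CPM in shXBP1 tumors, against 16.3, 18.7, 17.4 and 19.2 CPM in shNT tumors. The groups were apart by a small margin for Thbd and a wider one for Pros1. Log2FC came to 0.51 (SE 0.09, adjusted p = 0.00186) for Pros1 and 0.38 (SE 0.11, adjusted p = 0.0171) for Thbd, whose call was lost without shXBP1 tumor 1 (adjusted p = 0.0513).

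Tfpi, the inhibitor of tissue factor and factor VIIa, had 34.3, 44.5, 42.1 and 35.4 CPM in shXBP1 tumors, against 40.9, 43.0, 41.9 and 34.6 CPM in shNT tumors, with a log2FC of -0.04 (SE 0.11, adjusted p = 0.820). Procr, the protein C receptor, averaged 24.8 ± 2.22 CPM in shXBP1 tumors and 22.2 ± 1.495 CPM in shNT tumors (0.16, SE 0.10, adjusted p = 0.235). The groups overlapped for both genes. A2m, a broad protease inhibitor, averaged 0.413 ± 0.306 CPM in shXBP1 tumors and 0.577 ± 0.203 CPM in shNT tumors (-0.49, SE 0.51, adjusted p = 0.503). Antithrombin, Serpinc1, had 38 counts in shXBP1 tumors and 20 in shNT tumors, and heparin cofactor II, Serpind1, had 38 in shXBP1 tumors and 37 in shNT tumors, while Proc had none. Among the other members of the term, Gm49368 overlaps Itgam and is annotated as integrin alpha M, and stayed in because of its name. It averaged 2.86 ± 1.97 CPM in shXBP1 tumors and 1.44 ± 0.861 CPM in shNT tumors (0.98, SE 0.56, adjusted p = 0.222).

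In fibrinolysis only the urokinase gene passed. Plau had 49.0, 54.1, 49.1 and 45.3 CPM in shXBP1 tumors, against 39.4, 27.0, 40.1 and 40.2 CPM in shNT tumors. The groups did not overlap, and the log2FC was 0.43 (SE 0.12, adjusted p = 0.0192), a call lost without shXBP1 tumor 2 (adjusted p = 0.0519). Plaur, the urokinase receptor, had 91.6, 90.9, 104 and 107 CPM in shXBP1 tumors, against 92.9, 90.9, 91.6 and 85.5 CPM in shNT tumors. Its groups overlapped, with a log2FC of 0.13 (SE 0.08, adjusted p = 0.260).

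Plat, encoding tissue plasminogen activator, had 73.6, 60.9, 71.8 and 86.4 CPM in shXBP1 tumors, against 80.7, 79.7, 99.5 and 85.5 CPM in shNT tumors, a log2FC of -0.24 (SE 0.11, adjusted p = 0.123). Among shXBP1 tumors only tumor 4 reached into the shNT range, and without it Plat passed as lower (-0.32, adjusted p = 0.0234). Serpinb2, a serpin of macrophages that inhibits plasminogen activators, had 0.8285, 1.03, 0.347 and 0.402 CPM in shXBP1 tumors, against 0.410, 0.189, 0.173 and 0.218 CPM in shNT tumors (1.37, SE 0.51, adjusted p = 0.0597), and passed without shXBP1 tumor 4 or shNT tumor 1 (adjusted p = 0.0401 and 0.0476). The count of higher fibrinolysis genes was thus 0 without shXBP1 tumor 2 and 2 without shXBP1 tumor 4 or shNT tumor 1. Plasminogen, Plg, and Cpb2 had no count in any tumor, and Serpinf2, encoding the plasmin inhibitor, had 26 counts in shXBP1 tumors and 14 in shNT tumors. The summed level of fibrinolysis genes was 115 ± 14.2 FPKM in shXBP1 tumors and 111 ± 3.64 FPKM in shNT tumors (SD, n = 4 each). For complement genes the sum was 1556 ± 358 FPKM in shXBP1 tumors and 663 ± 87.1 FPKM in shNT tumors. Most of that was the 3 C1q chains, with 1084 ± 293 FPKM in shXBP1 tumors and 525 ± 76.3 FPKM in shNT tumors. For coagulation genes it was 111 ± 4.56 FPKM in shXBP1 tumors and 78.8 ± 1.27 FPKM in shNT tumors.

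Genes of these pathways outside the annotated term were counted from a separate list. Of 10 tested complement genes on it 6 rose, 1 fell and 3 did not pass. Cfp, encoding properdin, which stabilises the alternative convertase, averaged 130 ± 34.0 CPM in shXBP1 tumors and 55.2 ± 8.30 CPM in shNT tumors (log2FC 1.24). C1rb rose by 1.72 on that scale. Ptx3, a pattern recognition protein that binds C1q, rose by 1.94 (SE 0.68) and passed only narrowly (adjusted p = 0.0483). Its level was low, at 1.08 ± 0.222 CPM in shXBP1 tumors and 0.285 ± 0.331 CPM in shNT tumors. C1qbp, a C1q-binding protein of mitochondria, fell by 0.21. Among 13 tested coagulation genes on the list, 3 were higher, 1 was lower and 9 did not pass. Among 7 fibrinolysis genes, 3 were higher, 1 was lower and 3 did not pass. Over all genes tested 16.9% rose and 13.1% fell, and the counts on this list were not tested against those shares. Serpine2, a protease inhibitor of thrombin and urokinase, rose by 1.68 on the log2 scale.

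The promoters of 14 of the 27 members that rose were in the RefSeq table, from 250 bases before to 50 bases after the start. The AP-1 motif TGAGTCA, searched on both strands, was in the windows of 4 of these 14 genes (F3, F2r, F2rl2 and C3ar1) and in 5.20% of all 32841 windows. The STAT motif TTCNNNGAA was in those of 2, C1ra and Pros1, and in 8.30% of all windows. The unfolded protein response core TGACGTGG, the ER stress response element and the kappa B site were in none of them, and in 0.676%, 0.119% and 0.155% of all windows. A match is a description of letters only. The 6 windows with a match are printed 5′ to 3′, to show the match in its surroundings, with the motif in capitals (GRCm38.p6).
F3, chr3:121723287-121723586, plus strand: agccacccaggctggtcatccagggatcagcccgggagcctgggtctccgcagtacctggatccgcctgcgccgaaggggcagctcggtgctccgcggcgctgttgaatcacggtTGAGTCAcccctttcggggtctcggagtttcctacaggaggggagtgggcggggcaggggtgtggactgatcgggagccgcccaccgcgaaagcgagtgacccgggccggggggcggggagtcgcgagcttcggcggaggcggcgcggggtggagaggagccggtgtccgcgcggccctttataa
F2r, chr13:95618417-95618716, minus strand: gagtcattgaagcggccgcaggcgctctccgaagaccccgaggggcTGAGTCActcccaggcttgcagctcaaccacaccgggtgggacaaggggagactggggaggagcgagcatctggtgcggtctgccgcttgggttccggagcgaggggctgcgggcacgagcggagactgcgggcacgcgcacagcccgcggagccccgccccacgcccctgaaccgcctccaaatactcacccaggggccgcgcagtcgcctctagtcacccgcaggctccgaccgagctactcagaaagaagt
F2rl2, chr13:95696670-95696969, plus strand: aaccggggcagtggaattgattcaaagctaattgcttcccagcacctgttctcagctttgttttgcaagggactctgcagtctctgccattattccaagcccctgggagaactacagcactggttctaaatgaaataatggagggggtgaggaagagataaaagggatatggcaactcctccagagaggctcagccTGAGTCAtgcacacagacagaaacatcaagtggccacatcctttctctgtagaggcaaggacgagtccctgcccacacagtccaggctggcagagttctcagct
C3ar1, chr6:122856108-122856407, minus strand: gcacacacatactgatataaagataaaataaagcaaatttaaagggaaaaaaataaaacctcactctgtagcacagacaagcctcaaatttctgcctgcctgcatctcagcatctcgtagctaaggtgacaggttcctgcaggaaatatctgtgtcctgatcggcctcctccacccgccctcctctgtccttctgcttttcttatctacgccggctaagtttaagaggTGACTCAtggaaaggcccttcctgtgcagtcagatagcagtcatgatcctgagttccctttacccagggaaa
C1ra, chr6:124512371-124512670, plus strand: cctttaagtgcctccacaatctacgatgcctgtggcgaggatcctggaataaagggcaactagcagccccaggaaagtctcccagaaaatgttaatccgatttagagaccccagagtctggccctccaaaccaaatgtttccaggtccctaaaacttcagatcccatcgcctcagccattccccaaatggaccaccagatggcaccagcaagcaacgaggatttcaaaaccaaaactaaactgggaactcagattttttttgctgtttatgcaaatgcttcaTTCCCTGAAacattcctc
Pros1, chr16:62854057-62854356, plus strand: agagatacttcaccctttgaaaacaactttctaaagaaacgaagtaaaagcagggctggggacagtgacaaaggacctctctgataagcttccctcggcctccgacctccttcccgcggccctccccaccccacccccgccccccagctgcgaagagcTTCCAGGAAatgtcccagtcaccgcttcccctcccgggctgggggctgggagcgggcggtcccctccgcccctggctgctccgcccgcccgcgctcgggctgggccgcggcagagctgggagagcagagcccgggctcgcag
In F3 the match lay 135 to 129 bases before the start, in F2r 204 to 198 and in F2rl2 54 to 48 bases before it, and in C3ar1 it was read as TGACTCA, the motif on the other strand, 22 to 16 bases before the start. The STAT match lay at positions 32 to 40 after the start in C1ra, and 92 to 84 bases before it in Pros1.

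A fold change for 39 members stood in the authors' deposited table. All 26 of the members that rose here and had a value there had the same sign in the authors' deposited table. At an adjusted p under 0.01 and at least 2-fold, 14 members were higher in shXBP1 tumors and 0 lower in the authors' deposited table. F7 had an adjusted p of 0.0374 in the authors' deposited table, against 0.0724 here.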

How the data were processed

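Whole-tumor RNA of 4 shXBP1 and 4 shNT tumors was analysed from one table whose columns, per the file headers, are FPKM and raw counts by tumor and the authors' comparison. The deposited counts are whole numbers without normalization; their basis (reads or fragments) was not given in the sources used here. FPKM, the authors' values per gene length and library depth, served for levels between genes and for sums over genes, with no test. Log2 fold changes and adjusted p-values in the authors' table came from DESeq2, per the file headers. The submitters' processing notes name GRCm38; the aligner, counting tool, strand setting and annotation release were not given in the sources used here. Coordinates are from GENCODE M21 (GRCm38), where 85 of 88 members were found, and promoter windows from RefSeq (GRCm38.p6).

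Genes were filtered with filterByExpr (minimum count 10) and scaled by TMM (factors 0.980 to 1.04) in edgeR 4.0.16 under R 4.3.3. Groups were compared by the robust quasi-likelihood test over all 8 tumors with no covariate, Benjamini-Hochberg adjustment over 14907 genes and a threshold of 0.05. SE is the size of the log2FC over the root of its F statistic. CPM uses the scaled library sizes. Alternatives used DESeq2 1.42.0 and limma 3.58.1 (voom), other scaling, filters and thresholds, a block and each tumor left out. The test was checked on simulated data with 66, 74 and 59 genes changed 1.5-, 2- and 4-fold, fewer than were called here. It recovered 53.0%, 66.2% and 98.3% of them. Unchanged genes made up 7.19% of its calls, and with no gene changed it made 0 calls. Total counts, 29070605 to 36012997 per tumor, limit precision for members with few counts. Members, roles, related genes and markers were chosen with earlier results of these data known. Named members that rose and reached 10 CPM on average in the higher group have values in every tumor. Up to 3 further tested members per role were chosen by the smallest p. Those named have values in every tumor or group means with SD. Most other members that rose at lower levels are also given. Some members that enter the counts are not reported here by name. Rtp4 and Iqgap2 were added after their values were seen.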

Additional observations from a re-analysis of the deposited data

Results flagged for a closer look

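In 7 of 90 groups of 4 tumors, a member's highest or lowest tumor lay so far from the others that its gap took up most of the group's range by Dixon's test at the 95% level, which chance gives in about 1 of 20 groups. Plau was low in shNT tumor 2, at 27.0 CPM against 39.4 to 40.2 CPM in the other shNT tumors. C1qb was low in shXBP1 tumor 4, at 282 CPM against 522 to 561 CPM in the other shXBP1 tumors. F7 reached 4.18 CPM in shNT tumor 4, against 1.92 to 2.05 CPM in the rest of its group. Masp1 reached 28.0 CPM in shNT tumor 4, with 22.2 to 23.2 CPM in the other shNT tumors. At low levels, A2m had 0.868 CPM in shXBP1 tumor 2 (0.202 to 0.295 CPM in the others), Cr2 had 1.11 CPM in shNT tumor 3 (0.189 to 0.343 CPM in the others) and Cfd had 0 CPM in shNT tumor 2 (0.762 to 0.914 CPM in the others).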

How the results depend on the processing

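The count of 27 higher members was 28 with DESeq2 (F7 added), 27 with limma voom, with DESeq2 size factors and without robust estimation, 28 without a filter (C6 added), 21 with at least 10 CPM in 4 libraries (6 members filtered out, which left 5 higher coagulation genes in place of 8) and 20 at an adjusted p under 0.01. With each tumor left out it ranged from 25 to 30. The count of lower members was 0 in each of these, and 0 to 1 with each tumor left out, the 1 being Plat without shXBP1 tumor 4. At an adjusted p under 0.01, 1644 of all genes were higher and 879 lower. With a tumor left out, 2058 to 2904 of all genes were higher and 1303 to 2401 lower. Tumors with the same number did not deviate together over all genes tested (correlations of -0.141 to -0.0247). The check gave no sign that the numbers pair the tumors, but it cannot exclude a pairing that moved few genes. The replicate block gave 27 higher and 0 lower members, lost none of the 27, and gave 2040 higher and 1304 lower of all genes. The sign turned, with no call, for Tfpi (log2FC 0.0063 with at least 10 CPM, and -0.10 to 0.019 with a tumor left out, positive without shXBP1 tumor 1 or 4), F5 (-0.25 to 0.75, negative without shXBP1 tumor 2), Cr2 (-0.11 to 0.96, negative without shXBP1 tumor 2 or shNT tumor 2) and C8g (-0.021 to 0.42, negative without shNT tumor 1); the cause was not tested. Over all alternatives the adjusted p ranged from 0.0165 to 0.209 for F7, 0.0271 to 0.348 for C1s2, 0.0234 to 0.375 for Plat, 0.0401 to 0.194 for Serpinb2, 0.00847 to 0.0773 for C2, 0.00853 to 0.0771 for Bdkrb1, 0.0053 to 0.0513 for Thbd and 0.00783 to 0.0519 for Plau. Of the 41 members that were not tested, 18 had no count in any tumor and 23 had too few; low depth and absent expression cannot be told apart for them.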
